A study of Mus musculus with 2 samples.

Results

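The genes described here are 8 members of cholesterol and isoprenoid synthesis, Fdps, Hmgcs1, Idi1, Fdft1, Sqle, Lss, Cyp51 and Insig1, taken by their symbols from the 32285 genes listed in both libraries. All 8 were found once in each library. They were chosen on measured values: Fdps was singled out because its cKO over Ctrl ratio was already known to be high in these same libraries, and the other 7 to ask whether its pathway shared that difference. The ratios of the members between the libraries are therefore given as descriptions, without tests.

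The mevalonate pathway builds isoprenoids from acetyl-CoA. Hmgcs1 acts early, on the way to mevalonate, and after phosphorylation and decarboxylation Idi1 isomerizes isopentenyl pyrophosphate. Fdps, farnesyl pyrophosphate synthase, joins these units into farnesyl pyrophosphate, the branch point from which sterols, dolichol, ubiquinone side chains and the lipid anchors of small GTPases are made. On the sterol branch Fdft1 makes squalene, Sqle oxidizes it, Lss closes the rings to lanosterol and Cyp51 removes a methyl group from lanosterol. Insig1 holds the SCAP and SREBP complex in the endoplasmic reticulum when sterols are plentiful and is itself a target of SREBP, the transcription factor that drives the genes of this pathway.

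Bone marrow (BM) cells of C57BL/6 mice aged 13 to 14 weeks were studied by 3′ scRNA-seq in droplets, in which each transcript molecule is counted once by its unique molecular identifier (UMI). The control (Ctrl) and Map4k4-cKO (cKO) mice gave 1 library each, made from c-Kit+ hematopoietic stem and progenitor cells mixed with red-cell-lysed BM cells. The cKO mice carried Mx1-Cre and floxed alleles of Map4k4, a serine/threonine kinase, deleted by poly I:C injections weeks before the experiment. Mx1-Cre is driven by an interferon-inducible promoter. The controls were Mx1-Cre littermates, whose genotype the methods write as Map4k4-/-, and whether they also received poly I:C is not stated in the sources used here. The number of mice behind each library was not given. With 1 library per group there was no replicate check of any difference. Every interval below covers counting error only, and a difference between the libraries cannot be told apart from one between the genotypes.

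The Ctrl library held 71527701 UMIs in 10220 barcodes and the cKO library 64393950 UMIs in 6872 barcodes, of which 9965 and 6718 cells were kept, with medians of 4111 and 6243.5 UMIs. The libraries shared 3010 barcodes, and the kept cells behind a shared barcode fell in the same class in 13.5% of cases, against 13.2% from the class shares alone. Cells were gated on markers that hold no member gene into 7 main classes, called HSC/MPP-like (596 Ctrl and 162 cKO cells), ProNeu-like (1085 and 1208), PreNeu-like (1054 and 870), imNeu-like (1626 and 1519), mNeu-like (1991 and 1573), ProMon-like (737 and 325) and MEP-like (568 and 148). Every marker of each class was higher in its own class than in all other cells in both libraries, with PreNeu-like cells judged on 5 secondary granule genes alone. Cells were placed by these same markers, so this describes the gates and does not check them. The cycle genes that split PreNeu-like from imNeu-like cells summed to 3884 CPM in Ctrl and 3461 CPM in cKO PreNeu-like cells. They were higher in MEP-like cells, at 4828 and 4015 CPM. Map4k4 itself was at 72.6 CPM (UMIs per 1000000 UMIs of the class or library) in the Ctrl and 64.3 CPM in the cKO library. Counts per gene do not show which exons were read, so these levels do not check the deletion, and the groups are named by their labels. Malat1, a nuclear RNA, and the summed mitochondrial UMIs were lower in the cKO library in all 7 classes, and their part in the results was not tested.

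The genes lie apart in the genome (GRCm38, GENCODE vM21). Fdps is a minus-strand gene at chr3:89093588-89101959, Hmgcs1 is at chr13:119690379-119708260 and Idi1 at chr13:8885501-8892451, both on the plus strand. Fdft1 is at chr14:63145150-63179578 on the minus strand, Sqle at chr15:59315077-59331192 on the plus strand, Lss at chr10:76531588-76557138 on the plus strand, Cyp51 at chr5:4081145-4104746 on the minus strand and Insig1 at chr5:28071363-28078662 on the plus strand. Fdft1 and Cyp51 overlap Ctsb and Akap9 on the opposite strand, and Hmgcs1, Lss and Idi1 each overlap a gene annotated on the opposite strand, which for Idi1 is not listed in the libraries. The sources used here do not say whether counting used the strand, so the levels of these 5 members are uncertain to that extent. Transcripts of 7 other annotated genes matched Fdps over at least 200 bases at 90% identity or more near its 3′ end, 4 matched Idi1 and 1 matched Fdft1. None of these is listed in the libraries, so reads shared with them could be counted for the member. Sqle matched 1 listed gene, away from its 3′ end.

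RefSeq promoter windows (GRCm38.p6) were at hand for 5 of the 8 members. The 250 bases before the start site are shown for the early enzymes Hmgcs1 and Idi1, the sterol enzyme Cyp51 and the regulator Insig1. These 4 include members with little mean difference between the libraries and members higher in the cKO library. Sqle and Lss, with larger mean ratios, are not shown, though Lss had a window. Capitals mark the CCAAT box (CCAAT, bound by NF-Y) and the sterol element (TCACNCCAC, a consensus of SREBP sites), each searched on both strands. The windows are chr13:119690101-119690350 (plus strand), chr13:8885356-8885605 (plus strand), chr5:4104698-4104947 (minus strand) and chr5:28071162-28071411 (plus strand).
Hmgcs1: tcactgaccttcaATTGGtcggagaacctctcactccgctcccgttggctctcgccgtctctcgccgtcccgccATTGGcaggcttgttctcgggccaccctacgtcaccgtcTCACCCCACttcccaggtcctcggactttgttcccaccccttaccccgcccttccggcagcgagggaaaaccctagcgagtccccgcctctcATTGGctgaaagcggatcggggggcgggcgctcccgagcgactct
Idi1: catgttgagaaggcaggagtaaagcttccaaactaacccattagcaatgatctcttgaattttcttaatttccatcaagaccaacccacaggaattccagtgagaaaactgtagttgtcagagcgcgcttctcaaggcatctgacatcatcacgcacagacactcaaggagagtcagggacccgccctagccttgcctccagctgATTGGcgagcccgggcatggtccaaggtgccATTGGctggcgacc
Cyp51: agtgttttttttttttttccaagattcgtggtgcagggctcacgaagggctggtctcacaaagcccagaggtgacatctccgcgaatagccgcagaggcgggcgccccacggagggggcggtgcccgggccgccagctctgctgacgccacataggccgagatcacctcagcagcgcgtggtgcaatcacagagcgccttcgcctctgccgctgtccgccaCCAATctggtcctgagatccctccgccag
Insig1: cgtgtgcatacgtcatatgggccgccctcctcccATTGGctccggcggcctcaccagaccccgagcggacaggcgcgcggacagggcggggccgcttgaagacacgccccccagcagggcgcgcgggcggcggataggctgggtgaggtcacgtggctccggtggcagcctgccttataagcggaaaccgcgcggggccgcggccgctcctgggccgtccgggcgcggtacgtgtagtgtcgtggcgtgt
All 5 windows, Lss included, held at least 1 CCAAT box, which 33.8% of all 32851 windows of this length hold. The sterol element was found in 1 of the 5, as TCACCCCAC in Hmgcs1 starting 137 bases before the start site (position -137), and in 1.05% of all windows. The 2 motifs did not overlap there. A missing match says only that these letters are not in the window.

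Fdps was higher in the cKO library than in the Ctrl library in all 7 classes. In the Ctrl library it was at 38.4 CPM in HSC/MPP-like cells, 119 in ProNeu-like, 50.4 in PreNeu-like, 32.9 in imNeu-like, 10.5 in mNeu-like, 68.2 in ProMon-like and 32.8 in MEP-like cells. In the cKO library it was at 73.2, 271, 115, 79.3, 38.2, 120.3 and 59.7 CPM in the same classes. ProNeu-like cells, the promyelocyte stage that makes primary granules, held the highest level in both libraries and mNeu-like cells the lowest. In the Ctrl library ProMon-like, PreNeu-like and HSC/MPP-like cells followed ProNeu-like cells in that order, and the 95% Poisson intervals of HSC/MPP-like (33.7 to 43.7), imNeu-like (29.2 to 37.0) and MEP-like cells (28.9 to 37.0) overlapped. In the cKO library the intervals overlapped for ProMon-like (109.7 to 132) and PreNeu-like cells (108.9 to 121), for imNeu-like (74.7 to 84.1) and HSC/MPP-like cells (62.3 to 85.5), and for HSC/MPP-like and MEP-like cells (51.3 to 69.2).

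The log2 ratio of Fdps, cKO over Ctrl, ran from 0.82 (95% exact binomial interval 0.62 to 1.02) in ProMon-like cells to 1.87 (1.46 to 2.30) in mNeu-like cells. It was 0.93 in HSC/MPP-like cells, 1.19 in ProNeu-like, 1.19 in PreNeu-like, 1.27 in imNeu-like and 0.87 in MEP-like cells. Its mean over the 7 classes, weighted equally, was 1.16 ± 0.36 (SD over classes, n = 7 classes of 1 library pair), a 2.24-fold difference in CPM. The median gene of a class was itself lower in the cKO library by CPM, with log2 ratios from -0.12 in HSC/MPP-like to -0.50 in mNeu-like cells. Relative to that median gene the mean for Fdps was 1.46, or 2.75-fold, with 1.04 in MEP-like and 2.36 in mNeu-like cells at the ends. Of the 8316 genes with at least 20 UMIs over both libraries in every class, which are called tested here, 3.32% were at least 1.5-fold higher than the median gene on this mean and 4.14% at least 1.5-fold lower.

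**Figure D1:**
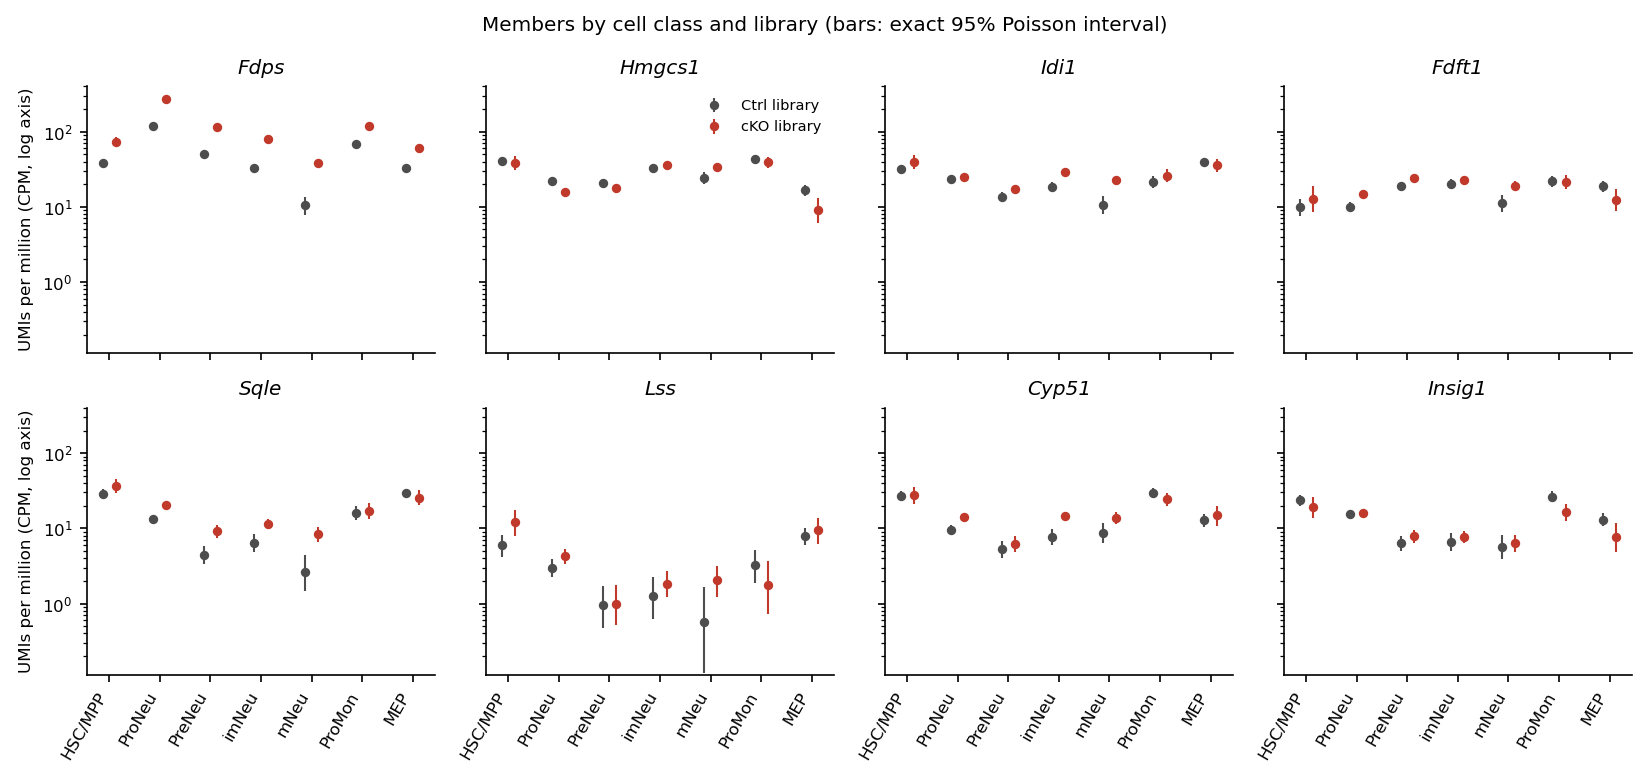
CPM (log axis) of the 8 members in the 7 marker-gated classes, grey for the Ctrl library and red for the cKO library, with exact 95% Poisson intervals. Fdps is higher in the cKO library in every class, from 10.5 against 38.2 CPM in mNeu-like to 119 against 271 CPM in ProNeu-like cells, whereas the intervals of the other members overlap in many classes.

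Cells that differ in depth were compared after thinning to 5000 UMIs, leaving out shallower cells. In ProNeu-like cells 43.6% of 897 Ctrl cells and 72.7% of 593 cKO cells then had an Fdps UMI, with 188 and 615 cells left out. The share was 21.5% of 894 against 38.1% of 572 in PreNeu-like cells, with 160 and 298 left out, and 14.9% of 734 against 26.2% of 1034 in imNeu-like cells, with 892 and 485 left out. In mNeu-like cells it was 4.49% of 156 against 13.7% of 927 cells, with 1835 Ctrl and 646 cKO cells left out. Before thinning, the shares over all cells of the class were 69.5% and 58.4% in ProNeu-like, 33.0% and 52.5% in PreNeu-like, 14.1% and 36.3% in imNeu-like, and 2.66% and 16.5% in mNeu-like cells. The ProNeu-like order thus turns without thinning, where the median cell held 16177 UMIs in the Ctrl and 3867.5 in the cKO library. The mean at 5000 UMIs was 0.581 against 1.42 Fdps UMIs per ProNeu-like cell. At that depth the variance of Fdps UMIs over cells, divided by the mean, lay between 0.961 and 1.47 in these 4 classes, where 1 is what counting alone gives.

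No class here should lack Fdps, so no direct background share could be taken. Free RNA was gauged from the ProNeu markers, which were at 1339 CPM in Ctrl and 681 CPM in cKO mNeu-like cells. At the ratio that Fdps has to these markers within ProNeu-like cells, they would carry 4.30 CPM of the 10.5 CPM of Fdps in Ctrl and 4.01 CPM of the 38.2 CPM in cKO mNeu-like cells. In the other 5 classes outside ProNeu-like cells the carried level was between 3.27 and 13.4 CPM in the Ctrl and between 2.27 and 22.9 CPM in the cKO library, below the measured Fdps level each time.

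Among the 7 other members the difference was smaller and did not extend to every class. Over the 7 classes 4 of them, Idi1, Sqle, Lss and Cyp51, were at least 1.5-fold higher relative to the median gene, none was at least 1.5-fold lower, and Hmgcs1, Fdft1 and Insig1 passed in neither direction. Of all 8316 genes tested 3.32% passed as higher and 4.14% as lower. With every cell thinned to 1000 UMIs the number of other members that passed was also 4, but Fdft1 passed (0.94) and Lss did not (0.08). The median of their mean log2 ratios was 0.33 by CPM and 0.63 relative to the median gene, where the median over all 8316 genes was -0.32 and -0.03. By CPM alone, not set against the median gene, 1 of the 7 passed 1.5-fold, Sqle, and at 2-fold none passed. The share of all genes that pass was not counted for either of these cuts. Without mNeu-like cells 1 of the 7 passed, again Sqle, so the count at this cut depended on that class. Idi1 (0.52), Lss (0.52) and Cyp51 (0.54) then fell short of the cut, which is 0.58 in log2. The share of all genes that pass without that class was not counted.

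Hmgcs1, the earliest enzyme among the members, was close between the libraries on average, but by CPM differed beyond counting error in ProNeu-like, mNeu-like and MEP-like cells. It was at 40.6 CPM in HSC/MPP-like cells, 22.2 in ProNeu-like, 20.5 in PreNeu-like, 32.7 in imNeu-like, 24.4 in mNeu-like, 42.7 in ProMon-like and 16.6 in MEP-like cells of the Ctrl library. The cKO values were 38.7, 15.9, 17.8, 36.0, 34.0, 39.3 and 9.11 CPM. The cKO value was thus above the Ctrl value for mNeu-like and imNeu-like cells and below it in the other 5 classes. In HSC/MPP-like, PreNeu-like, imNeu-like and ProMon-like cells the interval of the log2 CPM ratio included 0. In ProNeu-like cells the ratio was -0.48 (-0.72 to -0.25). The mean log2 ratio was -0.16 ± 0.07 (counting SE) by CPM and 0.14 relative to the median gene, so its direction turned with the scaling. In MEP-like cells, with 131 and 27 UMIs, it was below the median gene by either measure, at -0.69 relative to it (interval -1.35 to -0.09), and in mNeu-like cells above it, at 0.97 (0.68 to 1.28). With every cell thinned to 1000 UMIs the MEP-like value was -0.10.

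Idi1, which supplies dimethylallyl pyrophosphate as the starter for Fdps, was at 31.4 CPM in HSC/MPP-like cells, 23.1 in ProNeu-like, 13.5 in PreNeu-like, 18.5 in imNeu-like, 10.7 in mNeu-like, 21.3 in ProMon-like and 39.1 in MEP-like cells of the Ctrl library. In the cKO library it was at 39.6, 24.8, 17.1, 28.8, 22.7, 26.0 and 35.4 CPM. The values were higher in the cKO library in 6 classes, with MEP-like cells the exception. Its mean log2 ratio was 0.38 ± 0.07 (counting SE) by CPM and 0.68 relative to the median gene, and ran from 0.03 in MEP-like to 1.59 in mNeu-like cells.

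Sqle, the epoxidase at an oxygen-requiring and rate-limiting step of sterol synthesis, came nearest to Fdps among the other members. Its Ctrl levels were 28.5 CPM in HSC/MPP-like cells, 13.4 in ProNeu-like, 4.45 in PreNeu-like, 6.40 in imNeu-like, 2.67 in mNeu-like, 15.9 in ProMon-like and 29.6 in MEP-like cells. Its cKO levels were 36.8, 20.2, 9.14, 11.4, 8.31, 17.1 and 25.6 CPM. MEP-like cells alone had the lower value in the cKO library, within counting error. The mean log2 ratio was 0.63 ± 0.10 (counting SE) by CPM and 0.92 relative to the median gene, with 2.14 (interval 1.31 to 3.07) in mNeu-like cells on 14 and 82 UMIs and 1.39 (0.90 to 1.90) in PreNeu-like cells. The order of the classes was not that of Fdps: in the Ctrl library Sqle was highest in MEP-like cells and Fdps in ProNeu-like cells.

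The other sterol enzymes were spread between these. Fdft1, which commits farnesyl pyrophosphate to sterols, lay between 9.90 and 21.8 CPM in the Ctrl and 12.5 and 24.1 CPM in the cKO library. Its mean log2 ratio was 0.23 ± 0.08 (counting SE) by CPM and 0.53 relative to the median gene, with 0.86 (0.57 to 1.15) in ProNeu-like, 1.24 (0.81 to 1.69) in mNeu-like and -0.42 (-0.98 to 0.10) in MEP-like cells. Cyp51 lay between 5.32 and 29.5 CPM in the Ctrl and 6.23 and 27.6 CPM in the cKO library. Relative to the median gene its mean was 0.63, with 1.33 (0.93 to 1.75) in imNeu-like, 1.15 (0.66 to 1.67) in mNeu-like and 0.88 (0.59 to 1.18) in ProNeu-like cells, and -0.04 (-0.42 to 0.33) in ProMon-like cells. Lss was the rarest member, with 193 Ctrl and 189 cKO UMIs over the 7 classes. Its mean was 0.78 relative to the median gene with a counting SE of 0.24, 0.20 when cells whose barcode was found in both libraries were left out and 0.08 with every cell thinned to 1000 UMIs, so its call was lost in either case. In mNeu-like cells the Lss ratio of 2.32 rested on 3 Ctrl and 20 cKO UMIs (interval 0.57 to 4.72), and in ProMon-like cells, on 18 and 7 UMIs, the ratio was -0.63 (-2.13 to 0.70).

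Insig1, the regulator among the members, was at 23.8 and 19.3 CPM in HSC/MPP-like cells of the Ctrl and cKO libraries, 15.5 and 16.1 in ProNeu-like, 6.37 and 7.81 in PreNeu-like, 6.63 and 7.68 in imNeu-like, 5.72 and 6.39 in mNeu-like, 26.4 and 16.3 in ProMon-like, and 13.0 and 7.76 in MEP-like cells. The cKO value was the higher one in the 4 classes of the neutrophil path and the lower one in the other 3. By CPM the intervals of the log2 ratio included 0 in all 4 neutrophil classes and in HSC/MPP-like cells. They lay below 0 in ProMon-like (-1.14 to -0.26) and MEP-like cells (-1.47 to -0.09). The mean log2 ratio was -0.15 ± 0.10 (counting SE) by CPM and 0.15 relative to the median gene, so its direction on the mean also turned with the scaling.

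By class, the number of the 7 other members at least 1.5-fold higher than the median gene was 1 in HSC/MPP-like cells, where 9.23% of all genes tested passed, 4 in ProNeu-like (7.66% of all genes) and 4 in PreNeu-like cells (7.43%). It was 6 in imNeu-like (8.17%), 7 in mNeu-like (11.2%), 0 in ProMon-like (10.4%) and 0 in MEP-like cells (11.5%). In ProMon-like cells Lss and in MEP-like cells Hmgcs1 were at least 1.5-fold lower. These counts moved with the processing. Over 13 settings, this one included, mNeu-like cells had 6 to 7 members past 1.5-fold and imNeu-like cells 4 to 7. PreNeu-like cells had 3 to 6, ProNeu-like 3 to 4, HSC/MPP-like 1 to 3, ProMon-like 0 to 3 and MEP-like cells 0 to 4. These ranges leave out CPM alone and the 2-fold cut. By CPM alone 5 passed in mNeu-like, 3 in imNeu-like, 2 in ProNeu-like, 1 in PreNeu-like and 1 in HSC/MPP-like cells. None passed in ProMon-like or MEP-like cells, where 2 and 3 were at least 1.5-fold lower. The share of all genes that pass was counted for the main setting only. Median-of-ratios scaling cannot change counts set against the median gene. The same holds for a total taken without mitochondrial, ribosomal protein, haemoglobin and immunoglobulin genes. Both are among the 13 settings and do not check these counts. With the mean of per-cell proportions in place of summed UMIs, 4 members passed in MEP-like, 4 in ProNeu-like and 4 in imNeu-like cells, and with every cell thinned to 1000 UMIs, 3 passed in ProMon-like and 2 in MEP-like cells. The other members spread to either side of the median gene in ProMon-like and MEP-like cells, whereas in HSC/MPP-like cells Insig1 alone (-0.18) and in ProNeu-like cells Hmgcs1 alone (-0.19) lay below it. Fdps passed 1.5-fold in all 7 classes. The differences between classes were not tested. All 8 members had at least 20 UMIs over both libraries in each class.

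**Figure D2:**
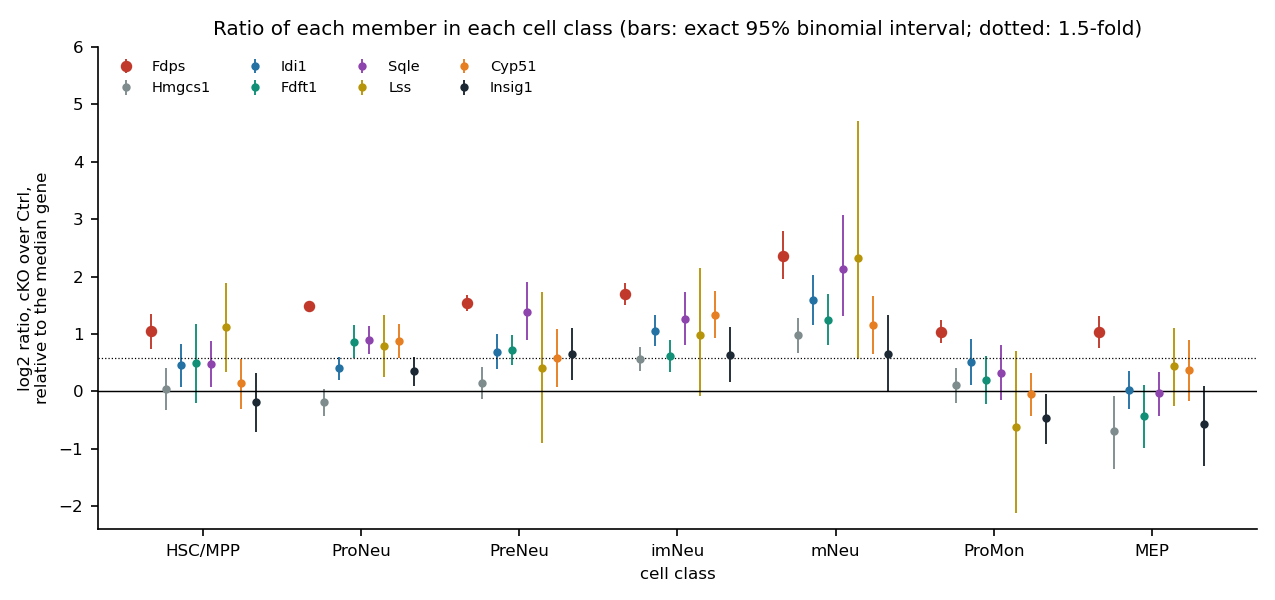
Log2 ratio of cKO over Ctrl for each member in each class, relative to the median gene of that class (0 line), with exact 95% binomial intervals and a dotted line at 1.5-fold. Fdps is between 1.04 and 2.36 in every class, while the other 7 members spread around 0 in MEP-like and ProMon-like cells and all lie above the dotted line in mNeu-like cells.

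Fdps can be set against the other members without any scaling between the libraries, as its share of the UMIs of all 8. The share was 18.7% in Ctrl and 28.1% in cKO HSC/MPP-like cells, 55.1% and 71.1% in ProNeu-like, 41.9% and 58.0% in PreNeu-like, 26.1% and 39.2% in imNeu-like, 14.1% and 26.5% in mNeu-like, 29.8% and 45.1% in ProMon-like, and 19.2% and 34.2% in MEP-like cells. The share was higher in the cKO library in each of the 7 classes. Fdps was chosen with its ratio in these libraries known, so the shares are a description and not independent evidence. The summed level of the other 7 was 96.6 CPM in Ctrl and 110.2 CPM in cKO ProNeu-like cells, 64.0 and 106.1 CPM in mNeu-like cells, and 138 and 115 CPM in MEP-like cells.

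**Figure D3:**
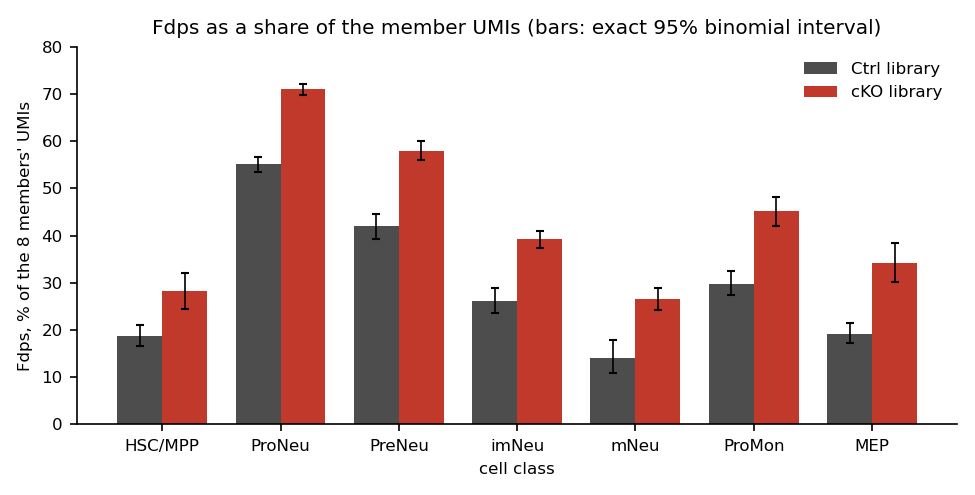
Fdps UMIs as a percentage of the UMIs of all 8 members in each class, grey for the Ctrl library and red for the cKO library, with exact 95% binomial intervals. The share is higher in the cKO library in every class, from 14.1% against 26.5% in mNeu-like to 55.1% against 71.1% in ProNeu-like cells.

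The wider pathway was described from lists of its steps. Of the 5 mevalonate-step genes tested in every class 3 were at least 1.5-fold higher than the median gene on the mean over classes: Idi1 and the mevalonate kinases Mvk (mean 1.12) and Pmvk (0.79). Of the 11 sterol-step genes 5 passed, the members Sqle, Lss and Cyp51 together with Nsdhl (0.88) and Tm7sf2 (0.75), which act after Cyp51. Of all genes tested 3.32% passed as higher on the same mean. Mvk was at 8.56 CPM in Ctrl and 12.3 CPM in cKO ProNeu-like cells and at 5.45 and 14.3 CPM in HSC/MPP-like cells. Nsdhl was at 2.29 and 7.20 CPM in mNeu-like cells but at 12.3 and 11.1 CPM in MEP-like cells. Mvd, a mevalonate decarboxylase at 0.97, missed the count minimum in MEP-like cells and is not among these counts.

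In the isoprenoid branch list, Fdps was the sole gene of 9 tested that passed. Fdps was placed in this list though it makes the branch-point product that sterols also need, and it was chosen for its high ratio. Ggps1, which extends farnesyl to geranylgeranyl pyrophosphate, was at 0.11, the farnesyltransferase subunits Fnta and Fntb at 0.32 and -0.16, and the dolichol genes Dhdds and Nus1 at 0.17 and -0.41. None of the 7 tested genes of SREBP control and sterol-regulated uptake passed on the mean over classes. Stard4 was the highest at 0.53, Srebf2, which encodes the SREBP of this pathway, was at 0.41, Insig2 at 0.08 and Scap at -0.19. By class Stard4 passed as higher in 3, with 1.46 in mNeu-like cells, Insig1 in 3, Srebf2 in 2 and the rest in none. Among 7 tested genes of cholesterol export and storage 1 was at least 1.5-fold lower, the exporter Abcg1 (-0.66). On the same mean 4.14% of all genes tested passed as lower. By class Abcg1 passed as lower in 3: ProNeu-like, mNeu-like (35.6 CPM in Ctrl and 12.7 CPM in cKO) and MEP-like cells. It did not pass in the other classes, with 0.11 in imNeu-like cells. Its lowest value, -2.09 in MEP-like cells, rested on 51 Ctrl and 4 cKO UMIs. The mean without that class was not computed. None of the 5 tested genes of fatty acid synthesis passed in either direction. The medians of the 6 lists were 0.68 for the mevalonate steps, 0.54 for the sterol steps, 0.11 for the isoprenoid branch, 0.08 for SREBP control, -0.19 for export and storage and 0.25 for fatty acid synthesis, against -0.03 over all genes.

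Taken by class and relative to the median gene, the 17 mevalonate and sterol genes had their highest counts along the neutrophil path. The log2 CPM ratio of that median gene ran from -0.29 in ProNeu-like to -0.50 in mNeu-like cells along this path. It was -0.12 in HSC/MPP-like, -0.22 in ProMon-like and -0.17 in MEP-like cells. Counts of the 17 by CPM alone were not taken, so this order may not hold on that scale. The number at least 1.5-fold higher was 13 of 17 in mNeu-like, 11 of 17 in imNeu-like, 11 of 17 in ProNeu-like and 8 of 17 in PreNeu-like cells, against 6 of 17 in HSC/MPP-like cells, 4 of 17 in ProMon-like and 2 of 16 in MEP-like cells. Of all genes tested in a class, between 7.43% and 11.5% passed, and the MEP-like count was close to the 11.5% of all genes there. The sole gene at least 1.5-fold lower was Lss in ProMon-like (-0.63) and Hmgcs1 in MEP-like cells (-0.69), with none in the other 5 classes. The median of their ratios ran from 0.21 in ProMon-like to 1.24 in mNeu-like cells. These lists hold members and were drawn up with results of these libraries known, so they are not independent of the choice of members.

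**Figure D4:**
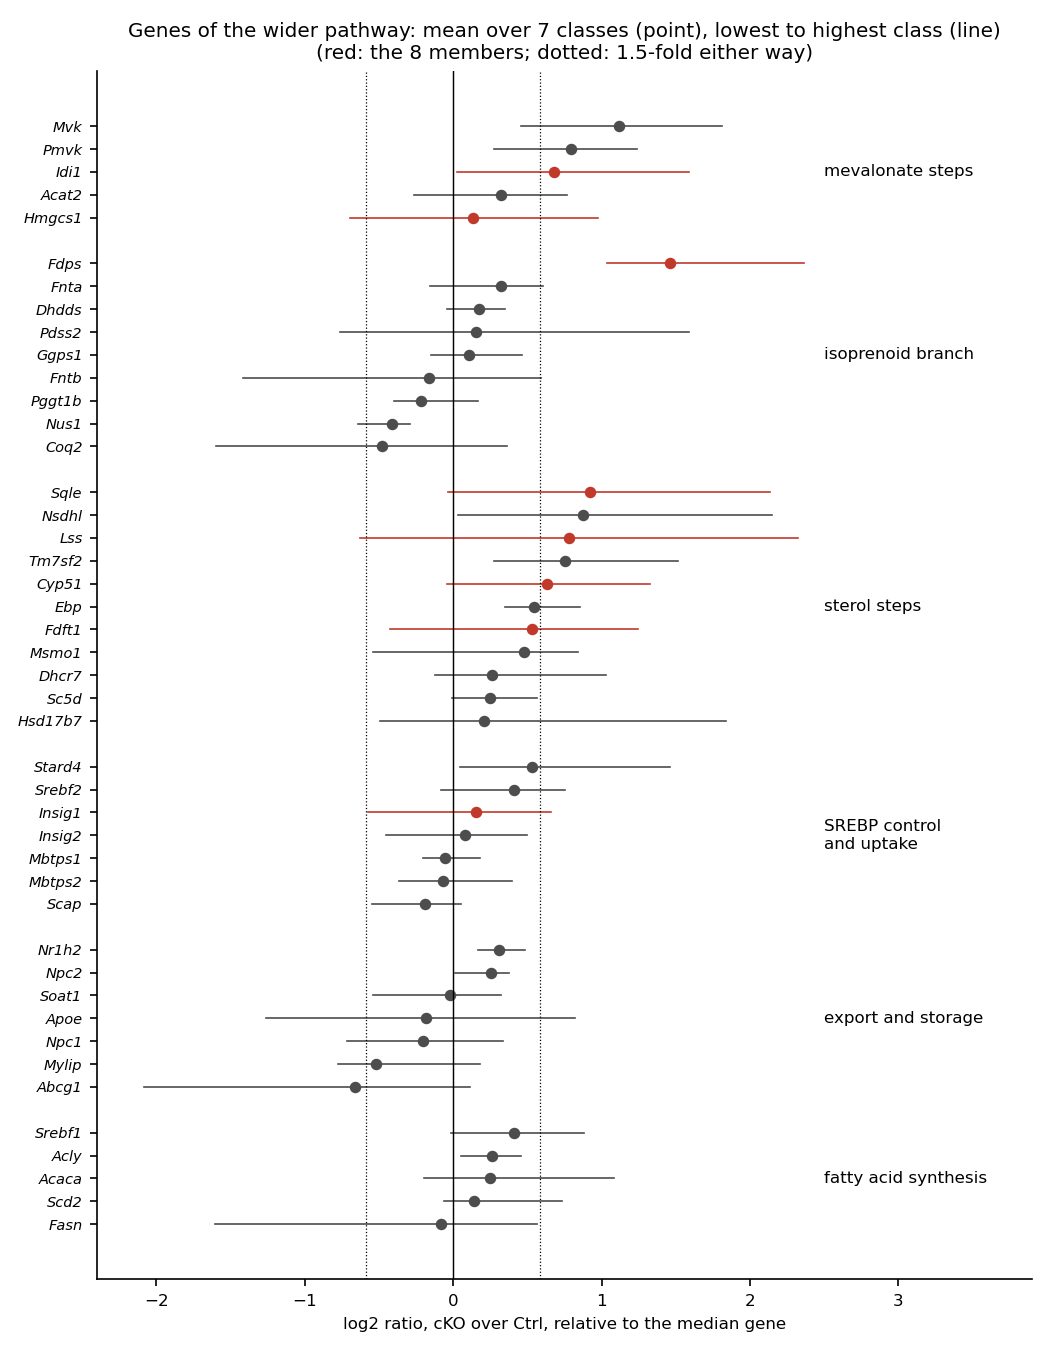
Mean log2 ratio over the 7 classes, relative to the median gene (point), and the range from the lowest to the highest class (line) for the genes of 6 lists that had enough UMIs in every class, with the members in red. Fdps, chosen for its high ratio and placed in the isoprenoid branch list though it makes the branch-point product, is at 1.46. The other genes of that list lie between -0.48 and 0.32. Past the right dotted line (1.5-fold) lie 5 of 11 sterol-step genes. Of all genes tested 3.32% passed that fold.

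The ratio was also taken among cells of like depth. Between 3000 and 10000 UMIs per cell the log2 ratio of Fdps was 1.18 in ProNeu-like, 1.49 in PreNeu-like, 1.76 in mNeu-like and 1.08 in imNeu-like cells. Among cells with 10000 UMIs or more it was 1.20 in ProNeu-like, 1.05 in PreNeu-like, 0.96 in imNeu-like, 0.96 in HSC/MPP-like and 0.53 (interval 0.31 to 0.76) in ProMon-like cells. In mNeu-like cells only 4 Ctrl cells reached 10000 UMIs, where the ratio was 0.08 (interval -1.49 to 2.38). In cells of 3000 to 10000 UMIs the intervals included 0 in HSC/MPP-like (0.28, -0.61 to 1.09) and ProMon-like cells (0.43, -0.13 to 0.97). The summed UMIs of the other 7 members gave 0.18, 0.22 and 0.99 at 10000 UMIs or more in ProNeu-like, PreNeu-like and imNeu-like cells, so in imNeu-like cells of that depth the value for Fdps, 0.96, was no larger than theirs. In mNeu-like cells they gave 0.86 between 1000 and 3000 UMIs and 0.25 between 3000 and 10000, against 0.73 over all mNeu-like cells.

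**Figure D5:**
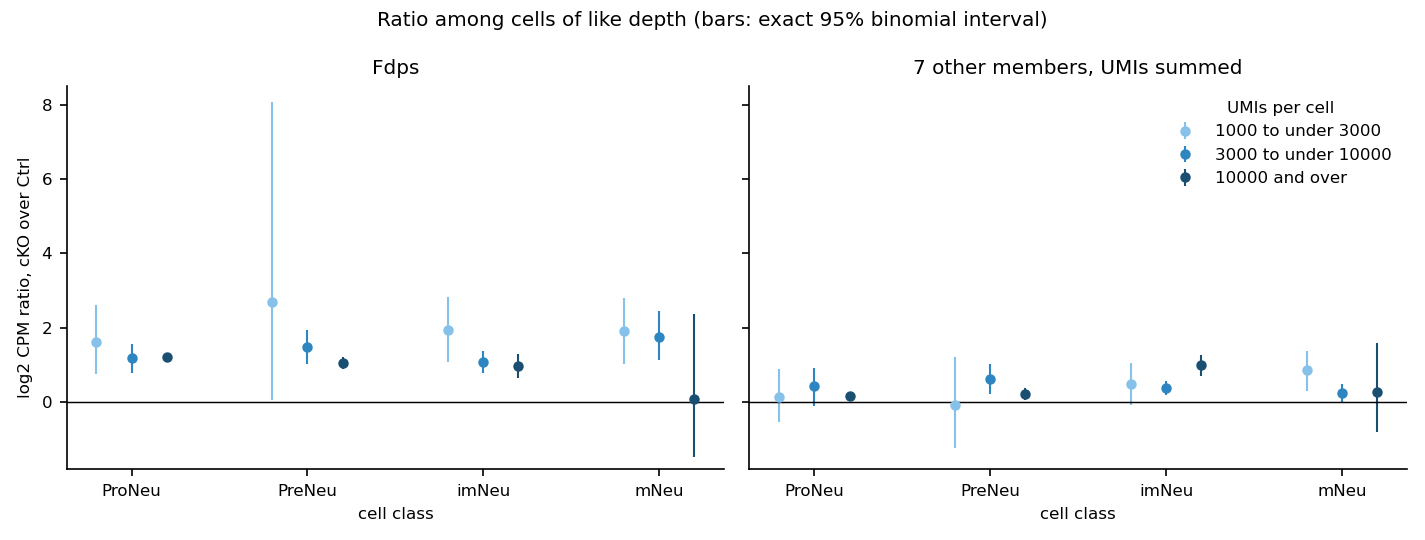
Log2 CPM ratio of cKO over Ctrl among cells of 3 depth ranges in 4 classes, for Fdps (left) and the summed UMIs of the 7 other members (right), with exact 95% binomial intervals. Fdps lies above 0 at every depth, from 0.96 to 2.70, except in mNeu-like cells of 10000 UMIs or more, of which the Ctrl library held 4. The 2.70, in PreNeu-like cells of 1000 to under 3000 UMIs, rests on 1 Ctrl and 19 cKO Fdps UMIs (interval 0.05 to 8.08).

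On the mean over classes the difference was not shared by the neighbours of Fdps on chromosome 3. Of 13 annotated genes within 100 kb of either end, 8 are listed and 5 had enough UMIs in every class. Their means relative to the median gene were -0.46 for Ash1l, 0.29 for Rusc1, -0.03 for Clk2, 0.31 for Scamp3 and -0.11 for Fam189b, and none passed 1.5-fold. A read-through gene annotated over Fdps on the same strand, Gm43738, is not listed, so its reads cannot be told apart from those of Fdps.

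Among the 6505 genes with at least 50 UMIs over both libraries in every class, Fdps ranked 3 by its lowest log2 CPM ratio over the classes, 0.82. Above it were Ifitm1 (1.43) and Wfdc17 (1.19), an interferon-inducible membrane protein gene and a whey acidic protein family gene. Below it were Ifitm2 (0.64), a relative of Ifitm1, and Tspo (0.55), which encodes a cholesterol-binding protein of the outer mitochondrial membrane. By pattern of log2 CPM over the 14 sums of class and library, the genes reported here as most like Fdps were Cuedc2 (Pearson r = 0.88), Lamtor2 (0.88), Ndufb11 (0.87) and Cope (0.85). The other members had r with Fdps from -0.13 for Hmgcs1 to 0.43 for Sqle. These values describe 14 points that share 2 libraries and their depth.

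In the smaller classes Fdps rested on few UMIs. It was at 31.0 CPM in Ctrl and 71.7 CPM in cKO B-like cells (36 and 15 UMIs), a log2 ratio of 1.21 (interval 0.23 to 2.11), and at 17.2 and 58.9 CPM in T/NK-like cells (7 and 7 UMIs). In plasma cell-like cells it was at 26.6 and 17.8 CPM (21 and 8 UMIs), a ratio of -0.58 (-1.96 to 0.66). The intervals also included 0 in basophil/mast cell-like (57.5 and 91.6 CPM) and megakaryocyte-like cells (47.2 and 66.7 CPM), so no difference was detectable there at this depth.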

How the data were processed

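Single-cell 3′ libraries (BMKMANU DG1000 kit) of 1 Ctrl and 1 cKO mouse bone marrow sample were used. The authors aligned reads to GRCm38 (mm10, per the labels) and deposited raw UMI counts per gene and cell barcode from Cell Ranger 5.0.0, with no normalization. The annotation release and the use of strand in counting are not given in the sources used here. As in the study, a cell needed 200 to 9000 genes and no more than 30% of its UMIs from mitochondrial genes. Its doublet removal was not repeated: 1280 Ctrl and 1231 cKO cells passed more than 1 gate and were kept in the class with the highest marker share over its threshold.

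A cell entered a class with at least 3 marker UMIs from at least 2 markers and a marker share per 10000 UMIs over the threshold of the class. Thresholds were set after seeing the marker shares, not the members. PreNeu-like cells were split from imNeu-like cells at 20 cycle-gene UMIs per 10000, with 172 Ctrl and 219 cKO cells within 20% of that value. UMIs were summed per class and library and divided by the total (CPM). Log2 ratios carry exact 95% binomial intervals, levels exact Poisson intervals, and a sum of 0 was set to 0.5 UMIs. A gene was tested with at least 20 UMIs over both libraries in a class, and was called at 1.5-fold or more from the median gene. Under the alternative settings this minimum chose the genes behind the median and was not applied to the members. Total UMIs per library were 71527701 and 64393950. Intervals cover counting error only, and no p-value was computed.

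The genes named are the 8 members, wider-list genes past 1.5-fold and those beside them in a list, genes within 100 kb of Fdps, the 5 with the highest lowest ratio over classes and the 5 most correlated with Fdps, 1 of which is not reported here. Certain other genes of the pathway are likewise not reported and are left out of the list counts. Members, lists and markers were chosen with earlier results of these data known. Promoters came from RefSeq and coordinates from GENCODE vM21, both GRCm38, and near-identical transcripts from BLAST+ 2.17.0. Scripts used scipy 1.17.1, pandas 2.3.3 and numpy 2.4.6 under Python 3.11.15 and were tested on simulated counts.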

Additional observations from a re-analysis of the deposited data

Results flagged for a closer look

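For 2 members the ratio relative to the median gene lay wholly above 0, by its 95% interval, in some classes and wholly below 0 in another. The difference between the classes was not tested, and each class is 1 sum per library. Hmgcs1 was at 0.97 (0.68 to 1.28) in mNeu-like and 0.56 (0.35 to 0.78) in imNeu-like cells, and at -0.69 (-1.35 to -0.09) in MEP-like cells. Insig1 was at 0.35 (0.10 to 0.60) in ProNeu-like, 0.65 (0.19 to 1.11) in PreNeu-like, 0.66 (0.01 to 1.33) in mNeu-like and 0.63 (0.16 to 1.12) in imNeu-like cells, and at -0.47 (-0.92 to -0.04) in ProMon-like cells. By CPM, not set against the median gene, Hmgcs1 was at 0.48 (0.18 to 0.78) in mNeu-like and -0.86 (-1.52 to -0.26) in MEP-like cells, while the interval in imNeu-like cells (0.14, -0.07 to 0.35) included 0. With every cell thinned to 1000 UMIs the MEP-like value relative to the median gene was -0.10. Insig1 was at -0.70 (-1.14 to -0.26) in ProMon-like cells by CPM, but its values in the 4 neutrophil classes (0.05 to 0.29) all had intervals that included 0, so the positive side was lost by CPM. Summed ProNeu-marker RNA in mNeu-like cells and the depth of cells differed between the libraries, and their part in these values was not tested.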

How the results depend on the processing

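The mean log2 ratio of Fdps stayed above 1.5-fold under all 19 alternatives, from 1.04 to 1.46. It was 1.46 with median-of-ratios scaling and 1.04 without mNeu-like cells, and within counting error of 1.16 under the other 17. The median over the 7 other members, 0.33, was 0.63 with median-of-ratios scaling and 0.12 without the cells whose barcode is in both libraries, where Lss and Fdft1 were lower, and within counting error under the other 17. The number of other members past 1.5-fold, 4, was 0 at 2-fold, 1 by CPM alone and 1 without mNeu-like cells. It was between 3 and 5 under the other 18 alternatives, though not always with the same genes. Thinning to 1000 UMIs took Lss from 0.78 to 0.08 and Fdft1 from 0.53 to 0.94. Certain settings counted here could not move a result and so do not check it. Dropping the UMI minimum cannot change the CPM means of Fdps and the other members. Median-of-ratios scaling cannot change the number of members past 1.5-fold of the median gene. Nor can a total taken without mitochondrial, ribosomal protein, haemoglobin and immunoglobulin genes. Leaving out multi-gate cells, shared barcodes or 1 class was chosen after seeing the data. Thinning to 1000 UMIs left out 455 Ctrl and 806 cKO cells. No paired analysis was possible because each group has 1 library. No replicate could be left out for the same reason. Depth limits Lss and the smaller classes most.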

Other observations

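Scd1, the stearoyl-CoA desaturase of the fatty acid list, missed the count minimum in several classes and so entered no count. In MEP-like cells it was at 19.5 CPM in Ctrl (154 UMIs) and 11.5 CPM in cKO (34 UMIs). In mNeu-like cells 19 UMIs were counted in the Ctrl and 0 in the cKO library, and in ProNeu-like cells 8 and 0. Among cells that passed no gate, Fdps was at 65.5 CPM in the Ctrl and 100.3 CPM in the cKO library, and Hmgcs1 at 33.9 and 33.9 CPM.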
